A study of Mus musculus with 10 samples.

Results

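Transcripts of 7 receptors that tune T cell activation were followed in naive CD8+ T cells at rest and after stimulation: Cd28, Icos, Ctla4, Pdcd1, Lag3, Cd5 and Cd6. They were taken by gene symbol from a table of RPKM values (reads per kilobase of transcript, scaled to sequencing depth), in which they make up 7 of 12637 genes. All 7 were among the 12203 genes tested, whose average over the 10 libraries reached 0.5 RPKM. Over the WT libraries alone Pdcd1 averaged 0.499 RPKM and Lag3 0.127 RPKM, so both passed that filter through the mutant libraries, and the share of receptors that differ by genotype is not read as evidence. The cells came from spleens of female C57Bl/6 mice aged 6 weeks, either wild type (WT) or Ikaros-Zn4-/-. In these mutants both Ikzf1 alleles encode an Ikaros transcription factor without its zinc finger 4, one of the fingers that contact DNA, in every cell that expresses the gene. In both genotypes the cells were enriched by negative selection and sorted as CD8+ CD62Lhi CD44 lo/-. They were lysed at once (0 min) or after 30 or 120 min on plates with bound antibodies against CD3 and CD28. For each genotype there were 2 resting libraries, 2 after 30 min and 1 after 120 min. Whether replicates came from different mice, or libraries of different times from the same mice, is not in the labels. The p-values thus treat the libraries as independent and measure the spread between these libraries, which may be technical.

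A T cell needs a signal from its antigen receptor and a costimulatory signal to become fully activated. CD28, which the plate-bound antibody engages here, and the related receptor ICOS bind B7 family ligands and recruit phosphoinositide 3-kinase. CTLA-4 competes with CD28 for the same ligands, PD-1 (encoded by Pdcd1) recruits tyrosine phosphatases, and LAG-3 binds MHC class II and other ligands; these inhibitory receptors are scarce on naive cells and are induced by activation. CD5 and CD6 are paired scavenger receptor family proteins of the T cell surface, and CD5 dampens antigen receptor signalling.

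The sequencing depth recovered from the RPKM values was 4.50 to 13.3 M reads per library. Ikzf1 was at 134 to 171 RPKM in the WT and 206 to 263 RPKM in the mutant libraries, but values summed over a gene do not check the deletion of an exon. The median log2 change of all tested genes was -0.13 at 30 min, -0.32 at 120 min and -0.22 from 30 to 120 min. It was between 0.01 and 0.03 in the genotype comparisons. The called stimulation changes of the receptors are given on the deposited scale, which was the one tested, and then relative to that median. Scaling every library by its median ratio to the others moved the calls over all genes from 794 up and 1523 down to 1118 and 836 at 30 min, from 2356 and 4935 to 3635 and 3659 at 120 min, and from 2065 and 3820 to 3139 and 3043 between these times. In WT cells alone it moved those at 30 min from 392 and 344 to 626 and 254, and in mutant cells from 205 and 129 to 252 and 80. In bulk RNA, fewer cells with a transcript and less transcript per cell cannot be told apart.

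Of the 7 receptor genes 5 lie in clusters (positions in GRCm38, GENCODE M21). Cd28 (chromosome 1, 60716800 to 60773359), Ctla4 (60887000 to 60915832) and Icos (60977927 to 61000320) stand in a row on the plus strand within 284 kb, with 114 kb between Cd28 and Ctla4 and 62.1 kb between Ctla4 and Icos. Cd5 (chromosome 19, 10717116 to 10739002) and Cd6 (10789341 to 10830058) are neighbours on the minus strand, 50.3 kb apart. Pdcd1 (chromosome 1, 94038305 to 94052553) and Lag3 (chromosome 6, 124904361 to 124911705) stand apart from the others, both on the minus strand. Ctla4 overlaps the pseudogene Rpl18-ps1 and Icos overlaps Gm37039, each on the same strand, and the library kit did not mark strand, so reads in the shared bases cannot be assigned to 1 gene.

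RefSeq promoter sequence (GRCm38.p6) was available for 3 of the 7 receptors and is shown because the series asks which genes Ikaros regulates. Each line gives the 250 bases before the annotated transcription start, 5′ to 3′ on the gene's strand, with the core letters of an Ikaros site, GGGAA or its reverse complement TTCCC, in capitals. The windows are 19:10738975-10739224 (minus strand) for Cd5, 1:94052554-94052803 (minus strand) for Pdcd1 and 1:60908775-60909024 (plus strand) for Ctla4, whose RefSeq start lies inside the longer GENCODE gene.
Cd5: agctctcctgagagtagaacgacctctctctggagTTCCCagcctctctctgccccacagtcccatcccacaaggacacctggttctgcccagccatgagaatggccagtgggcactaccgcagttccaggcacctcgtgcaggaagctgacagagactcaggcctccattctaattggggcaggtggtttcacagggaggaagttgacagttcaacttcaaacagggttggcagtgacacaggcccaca
Pdcd1: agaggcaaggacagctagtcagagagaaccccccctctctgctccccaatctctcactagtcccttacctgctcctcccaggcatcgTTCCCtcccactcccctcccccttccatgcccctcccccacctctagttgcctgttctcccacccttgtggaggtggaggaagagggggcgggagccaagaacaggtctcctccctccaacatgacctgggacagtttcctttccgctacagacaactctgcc
Ctla4: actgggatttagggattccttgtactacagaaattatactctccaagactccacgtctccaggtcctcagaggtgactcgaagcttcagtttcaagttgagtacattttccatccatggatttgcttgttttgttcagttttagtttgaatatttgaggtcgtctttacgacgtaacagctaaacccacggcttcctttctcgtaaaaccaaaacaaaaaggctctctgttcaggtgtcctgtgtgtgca
The Cd5 and Pdcd1 windows each held 1 match, both as TTCCC, and the Ctla4 window held 0. Of 9756 such windows of 7690 tested genes, 58.1% held at least 1 match on either strand, so a match is the common case. The GGAAA core of NFAT sites (or TTTCC), which can overlap GGGAA by its last 4 letters, occurred 2 times in the Pdcd1 window, 1 time in Ctla4 and 0 times in Cd5, against 54.2% of windows with at least 1. The AP-1 letters TGANTCA occurred in none of the 3 and in 4.08% of all windows. These letter counts describe the windows and say nothing of binding.

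Cd28 and Icos, the costimulatory pair, rose within 30 min in WT cells, and both were still above rest at 120 min. Resting WT cells had 15.3 and 12.3 RPKM of Cd28, which became 99.7 and 91.9 RPKM after 30 min and 33.6 RPKM after 120 min. Resting Ikaros-Zn4-/- cells had 18.0 and 17.0 RPKM, followed by 80.3 and 49.7 RPKM after 30 min and 39.4 RPKM after 120 min. All stimulated libraries of both genotypes lay above all resting ones, and the 30 min libraries lay above the 120 min ones, so Cd28 peaked early and then fell part of the way back. Icos started at 8.04 and 10.9 RPKM in WT cells, reached 28.9 and 28.7 RPKM after 30 min and stood at 24.5 RPKM after 120 min. In the mutant it started at 9.38 and 9.26 RPKM, with 14.3 and 13.2 RPKM after 30 min and 15.5 RPKM after 120 min. The resting Icos values of the genotypes overlapped, while every stimulated mutant library lay below every stimulated WT library, as for 3.84% of tested genes. At 30 min all libraries of Cd28, Icos and Ctla4 exceeded all resting ones, as for 6.92% of tested genes, and at 120 min those of Cd28 and Icos did, as for 22.1%.

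Over both genotypes Cd28 rose at 30 min by 2.25 on the log2(RPKM + 1) scale (SE 0.16, limma, Benjamini-Hochberg adjusted p = 0.000868), which is 2.39 above the median gene. At 120 min its change from rest was 1.18 (SE 0.20, adjusted p = 0.00181; 1.49 above the median), and from 30 to 120 min it fell by 1.08 (SE 0.20, adjusted p = 0.00398; 0.86 below the median). That fall lost its call when the WT library at 120 min was left out, with a value of -0.67 and an adjusted p = 0.0997 from the mutant cells alone. Icos rose by 1.02 at 30 min (SE 0.11, adjusted p = 0.00267; 1.15 above the median) and stood 0.99 above rest at 120 min (SE 0.13, adjusted p = 0.000645; 1.31 above the median). The change of Icos from 30 to 120 min did not pass the test (adjusted p = 0.860). Of the 7 receptors, 3 passed the test at 30 min, all upward, where 6.51% of tested genes rose and 12.5% fell. At 120 min 4 passed, 2 in each direction, where 19.3% rose and 40.4% fell.

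**Figure D1:**
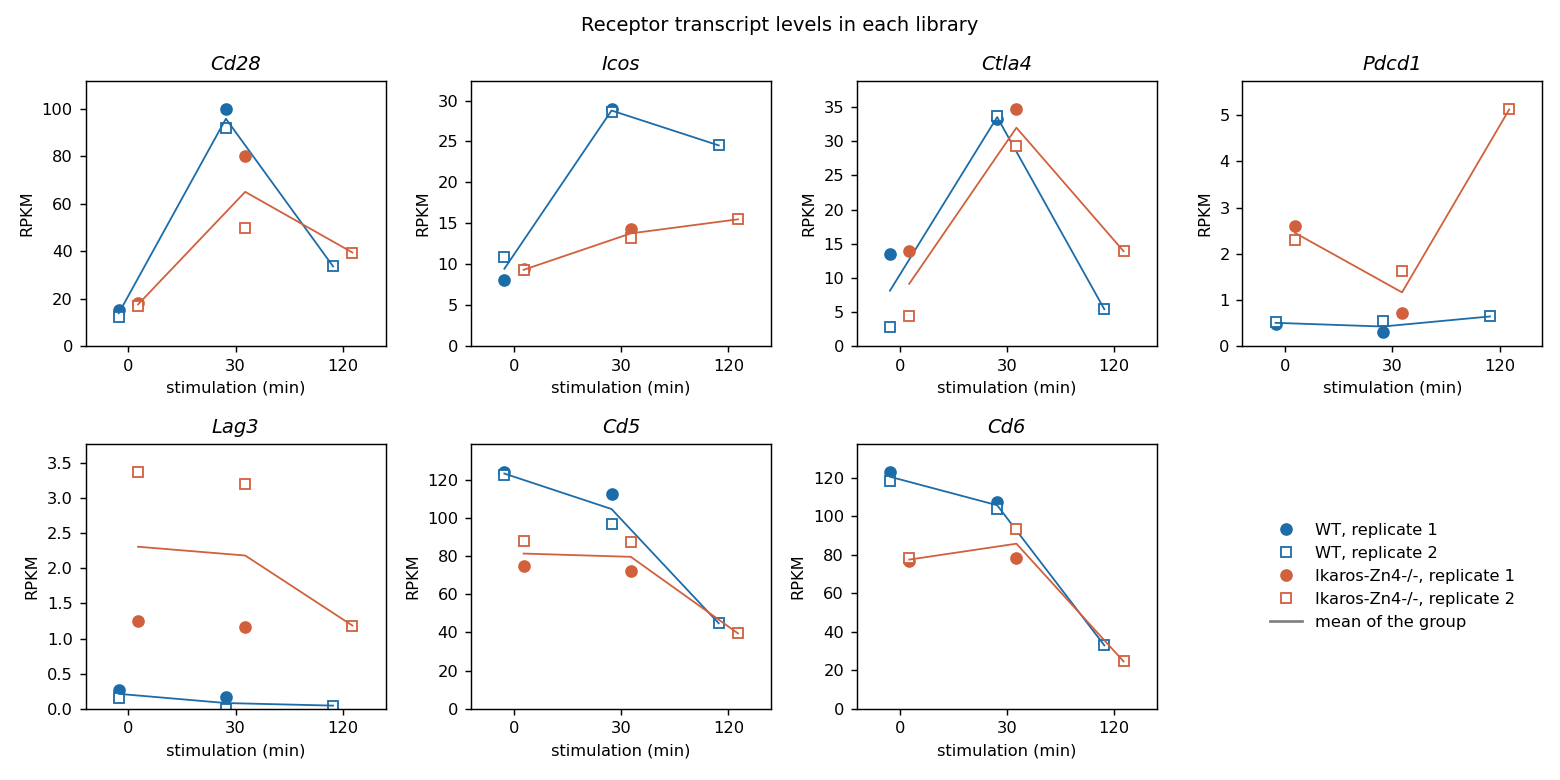
RPKM of each receptor (vertical axis, linear, from 0) by minutes of stimulation (horizontal axis, evenly spaced categories), with 1 point per library and a line through the group means. Cd28, Icos and Ctla4 are high at 30 min, Cd5 and Cd6 are low at 120 min, and all mutant points of Pdcd1 and Lag3 lie above all WT points.

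In WT cells alone the 30 min change was 2.71 for Cd28 (SE 0.23, adjusted p = 0.00467) and 1.52 for Icos (SE 0.15, adjusted p = 0.00640). In mutant cells alone it was 1.79 for Cd28 (SE 0.23, adjusted p = 0.0158) and 0.52 for Icos (SE 0.15, adjusted p = 0.114). The median gene changed by -0.15 in the WT and by -0.12 in the mutant comparison. Above it, the called changes were 2.86 for Cd28 and 1.67 for Icos in WT and 1.91 for Cd28 in mutant cells. Leaving out either WT library at 30 min ended both WT calls (adjusted p = 0.0536 to 0.0707), and leaving out WT replicate 2 at 0 min ended that of Cd28 (adjusted p = 0.0609). The mutant call of Cd28 was lost in 5 of 10 fits without 1 library and with the spread of the compared groups alone (adjusted p = 0.150). Of all tested genes 6.03% passed in the WT comparison and 2.74% in the mutant one. At 30 min Icos was lower in mutant than in WT cells, with a log2 difference of -1.01 (SE 0.15, adjusted p = 0.0201), and it was the only receptor called there, where 2.01% of genes were called higher and 0.606% lower. Leaving out any of the 4 libraries at 30 min ended this call, with adjusted p from 0.0618 to 0.144 and the value between -1.06 and -0.96. The spread of the compared groups alone gave an adjusted p = 0.0659. The test of the difference between the 2 responses gave -1.01 for Icos (SE 0.21, unadjusted p = 0.00216, adjusted p = 0.876) and -0.92 for Cd28 (SE 0.32, unadjusted p = 0.0234, adjusted p = 0.876). Neither passed, and 0 of 12203 genes did by limma, where 656 had an unadjusted p under 0.05, and 0 of the 9481 genes tested by limma-voom on recovered reads.

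Ctla4, the inhibitory receptor between Cd28 and Icos on the chromosome, also rose at 30 min, but its resting level differed widely between replicates. In resting WT cells it was at 13.5 and 2.75 RPKM and in resting mutant cells at 13.9 and 4.38 RPKM, with replicate 1 the higher in both. At 30 min it reached 33.3 and 33.8 RPKM in WT and 34.7 and 29.3 RPKM in mutant cells, above every resting library. At 120 min it was back at 5.40 RPKM in WT and at 13.9 RPKM in mutant cells, values within the range of the resting libraries or at its edge. Against the lower of the 2 resting libraries of its genotype each 120 min library was higher, and against the higher one it was lower in WT and nearly equal in mutant cells.

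Over both genotypes Ctla4 rose by 2.05 at 30 min (SE 0.47, adjusted p = 0.0277; 2.19 above the median). The call was lost in 6 of the 10 fits that left out 1 library, with an adjusted p of up to 0.0882. From 30 to 120 min Ctla4 fell by 1.79 (SE 0.57, adjusted p = 0.0375; 1.57 below the median). That call was lost in 10 of 19 other settings, and without the WT library at 120 min the value was -1.14 (adjusted p = 0.306). Its 120 min level did not differ from rest by the test (adjusted p = 0.715), and neither did the genotypes over all times (adjusted p = 0.681). The summed markers of CD4+ and regulatory T cells, cells known to carry CTLA-4, are given beside it. Of 8 such genes, 4 are in the table, and Cd4, Foxp3, Zbtb7b and Cd40lg are not listed. Their summed level was 8.25 and 6.53 RPKM in the resting WT replicates and 15.7 and 15.9 RPKM in the resting mutant replicates, and its part in the replicate gap of Ctla4 was not tested.

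**Figure D2:**
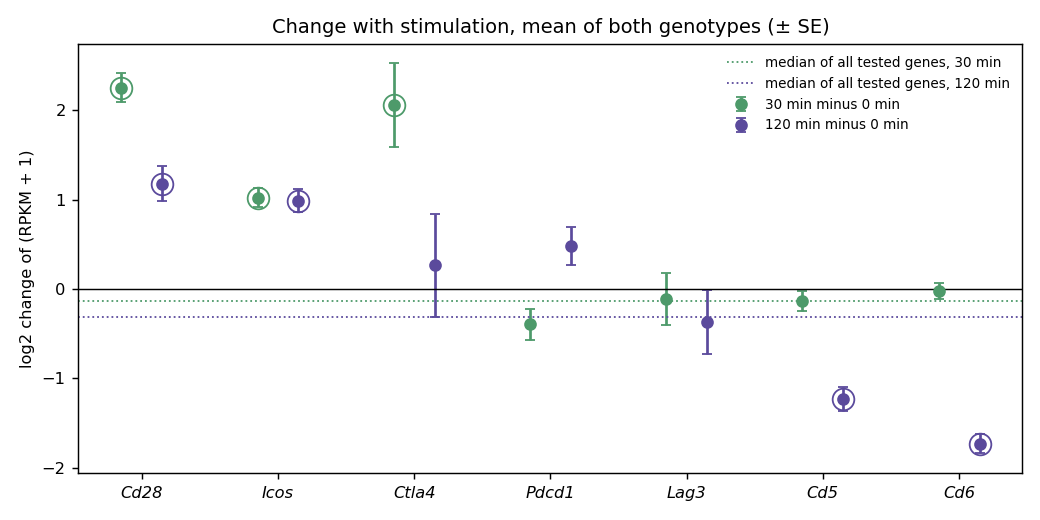
Log2 change of RPKM + 1 (vertical axis) from 0 to 30 min and from 0 to 120 min for each receptor, as the mean of both genotypes with its SE. Rings mark an adjusted p under 0.05 and dotted lines the median of all tested genes, -0.13 at 30 min and -0.32 at 120 min.

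The ratio of Cd28 to Ctla4, receptors that compete for the same ligands, was taken within each library. It was 1.14 and 4.48 in resting WT cells, 2.99 and 2.72 at 30 min and 6.22 at 120 min. In mutant cells it was 1.30 and 3.89 at rest, 2.32 and 1.70 at 30 min and 2.84 at 120 min. The resting replicates of each genotype spanned the 30 min values, so no change of this ratio at 30 min stood out from the spread between replicates.

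Pdcd1 and Lag3, the other inhibitory receptors, were close to the detection limit in WT cells and higher in mutant cells at every time. In WT cells Pdcd1 measured 0.482 and 0.525 RPKM when resting, 0.313 and 0.534 RPKM after 30 min and 0.642 RPKM after 120 min. In the mutant it measured 2.60 and 2.30 RPKM when resting, 0.709 and 1.62 RPKM after 30 min and 5.12 RPKM after 120 min. The mutant values were thus nearest to the WT range at 30 min and farthest from it at 120 min. Lag3 measured 0.265 and 0.160 RPKM in resting WT cells, 0.164 and 0 RPKM after 30 min and 0.0452 RPKM after 120 min. Mutant cells had 1.24 and 3.37 RPKM of Lag3 when resting, 1.16 and 3.21 RPKM after 30 min and 1.18 RPKM after 120 min. For both genes the 5 mutant values exceeded all 5 WT values, which was so for 2.70% of tested genes. Both passed the filter on level only through the mutant libraries, so that share is not read as evidence.

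Over all times the log2 difference of Ikaros-Zn4-/- and WT was 1.09 for Pdcd1 (SE 0.21, adjusted p = 0.0122) and 1.35 for Lag3 (SE 0.24, adjusted p = 0.00667). Both calls held in all 17 other settings in which the genes were tested, but both genes reached the filter on level only through the mutant libraries. Their model takes the 10 libraries as independent, which the labels do not establish. At 0 min alone neither passed, with a difference of 1.20 for Pdcd1 (adjusted p = 0.0631) and 1.37 for Lag3 (adjusted p = 0.184). At 30 min Pdcd1 gave 0.58 (adjusted p = 0.294) and Lag3 1.48 (adjusted p = 0.133). On the log2(RPKM + 1) scale such low levels give differences that understate the ratio of RPKM, so the reads behind them were recovered, all within 0.0027 of a whole number. WT libraries held 6 to 13 reads of Pdcd1 and mutant libraries 14 to 91, in all 45 against 210, which is 5.15-fold more per read sequenced (95% exact interval 3.72 to 7.28, counting error only). Lag3 had 0 to 6 reads in the WT and 23 to 39 in the mutant libraries, in all 14 against 154, or 12.1-fold more (7.02 to 22.7, counting error only). By time the ratio was 5.04 at 0 min (95% exact interval 3.04 to 8.77), 2.68 at 30 min (1.37 to 5.56) and 7.98 at 120 min (4.44 to 15.6) for Pdcd1. For Lag3 it was 8.19 (4.07 to 18.7), 17.4 (6.48 to 65.8) and 26.2 (4.26 to 1081), from 9, 4 and 1 WT reads. Each of these intervals covers counting error only and contains the pooled ratio of its gene, so no difference between times is read from them. The Lag3 intervals of the 2 resting mutant libraries did not overlap (0.867 to 1.73 and 2.30 to 4.76 RPKM), so their spread exceeded counting error. The WT library with 0 Lag3 reads has an upper 95% counting limit of 0.301 RPKM, still below the value of every mutant library.

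With stimulation the 2 genes moved differently. The change of Pdcd1 from rest failed the test at 30 min (-0.39, adjusted p = 0.153) as at 120 min (0.48, adjusted p = 0.0911), but the gene rose by 0.87 from 30 to 120 min (SE 0.21, adjusted p = 0.0136; 1.09 above the median). The change from rest at 120 min did pass in 6 of 18 other settings, with 0.72 in median-ratio scaled libraries (adjusted p = 0.0177) and 0.90 in quantile-normalized ones (adjusted p = 0.0192). The rise from 30 to 120 min rests on the mutant library at 120 min, the highest of the 10. Without it the WT cells gave 0.21 (adjusted p = 0.653). Lag3 passed at no time, with an adjusted p of 0.811 at 30 min and 0.408 at 120 min. Among the mutant libraries Lag3 was highest in replicate 2 at 0 and at 30 min, which are also the shallowest mutant libraries, at 4.50 and 5.77 M reads. The part of depth in this gap was not tested.

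**Figure D3:**
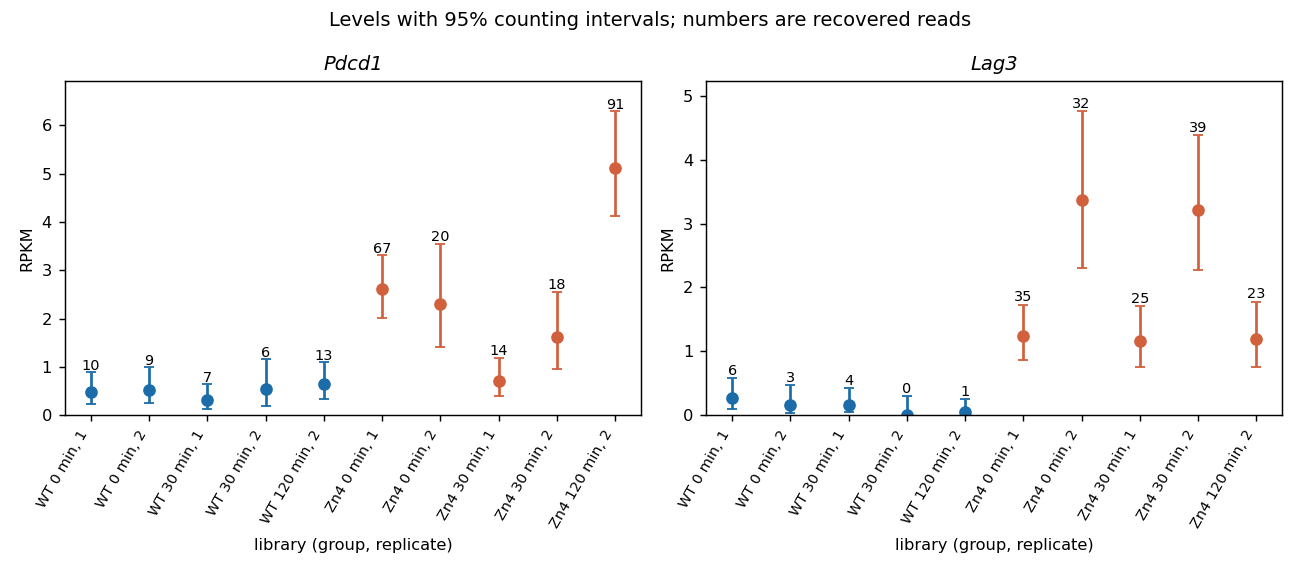
RPKM of Pdcd1 and Lag3 in each library (points) with 95% Poisson intervals of the recovered reads, whose number stands above each interval; Zn4 is Ikaros-Zn4-/-. WT libraries hold 6 to 13 reads of Pdcd1 and 0 to 6 of Lag3, and mutant libraries hold 14 to 91 and 23 to 39.

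Cd5 and Cd6 were the most abundant of the receptors at rest, did not pass the test at 30 min and fell at 120 min. WT cells held 124 and 122 RPKM of Cd5 before stimulation, 113 and 96.7 RPKM after 30 min and 44.8 RPKM after 120 min. Mutant cells held 74.7 and 87.9 RPKM before stimulation, 72.0 and 87.1 RPKM after 30 min and 39.5 RPKM after 120 min. The genotypes were thus farther apart at rest than after 120 min. Of Cd6, WT cells held 123 and 118 RPKM before stimulation, 107 and 104 RPKM after 30 min and 33.0 RPKM after 120 min. For Cd6 in the mutant the values were 76.8 and 78.1 RPKM before stimulation, 78.1 and 93.4 RPKM after 30 min and 24.6 RPKM after 120 min. For both genes the 120 min libraries lay below all others, as they did for 32.7% of tested genes, and at each time the mutant libraries lay below the WT libraries, as they did for 6.43%.

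At 120 min Cd6 fell by 1.73 from rest (SE 0.11, adjusted p = 4.48e-05; 1.41 below the median) and Cd5 fell by 1.23 (SE 0.13, adjusted p = 0.000266; 0.91 below the median). From 30 to 120 min Cd6 fell by 1.70 (SE 0.11, adjusted p = 0.000144) and Cd5 by 1.09 (SE 0.13, adjusted p = 0.000767). Their changes lay 1.49 and 0.88 below the median gene. In that step 5 of the 7 receptors passed, 1 upward and 4 downward, where 16.9% of tested genes rose and 31.3% fell. These falls of Cd5 and Cd6 held in every setting tried. Neither gene passed at 30 min (adjusted p = 0.409 for Cd5 and 0.870 for Cd6). The levels of the pair stood close to each other, with a Cd5 to Cd6 ratio of 0.922 to 1.13 in the 8 libraries at 0 and 30 min, and the ratio was 1.36 in WT and 1.61 in mutant cells at 120 min. Over the 10 libraries, which share their time groups, Pearson's r between the log2 values of Cd5 and Cd6 was 0.98.

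Over all times Cd6 was lower in mutant cells, with a log2 difference of -0.46 (SE 0.09, adjusted p = 0.0122), and Cd5 likewise, with -0.43 (SE 0.10, adjusted p = 0.0301). The Cd6 call held in all 18 other settings, while the Cd5 call was lost in 6 of 10 fits that left out 1 library, with an adjusted p of up to 0.0885. At 0 min alone the differences were -0.63 for Cd6 (adjusted p = 0.0595) and -0.60 for Cd5 (adjusted p = 0.127), and at 30 min -0.30 for Cd6 (adjusted p = 0.283) and -0.39 for Cd5 (adjusted p = 0.254). The 120 min libraries differed in the same direction, 1 against 1 and untested, with the mutant at 0.882 times the WT level for Cd5 and 0.746 times for Cd6. In all, 4 of the 7 receptors passed over all times, 2 higher and 2 lower, where 6.19% of tested genes were higher and 3.24% lower. At 0 min 0 of 7 passed by limma, where 2.47% of all genes did. An unadjusted p under 0.05 was found for 4 of the 7, Pdcd1, Lag3, Cd5 and Cd6, and for 1701 of 12203 genes. Of these 4, Pdcd1 and Lag3 passed the filter on level only through the mutant libraries. By limma-voom 3 passed, Pdcd1, Cd5 and Cd6, and the share over all genes is not given here. Icos missed the threshold over all times, at -0.53 (SE 0.17, adjusted p = 0.0933), and Cd28 did not pass there (adjusted p = 0.893). Icos did pass there in 2 of 18 other settings, by limma-voom (-0.61, adjusted p = 0.0191) and without WT replicate 1 at 0 min (-0.67).

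**Figure D4:**
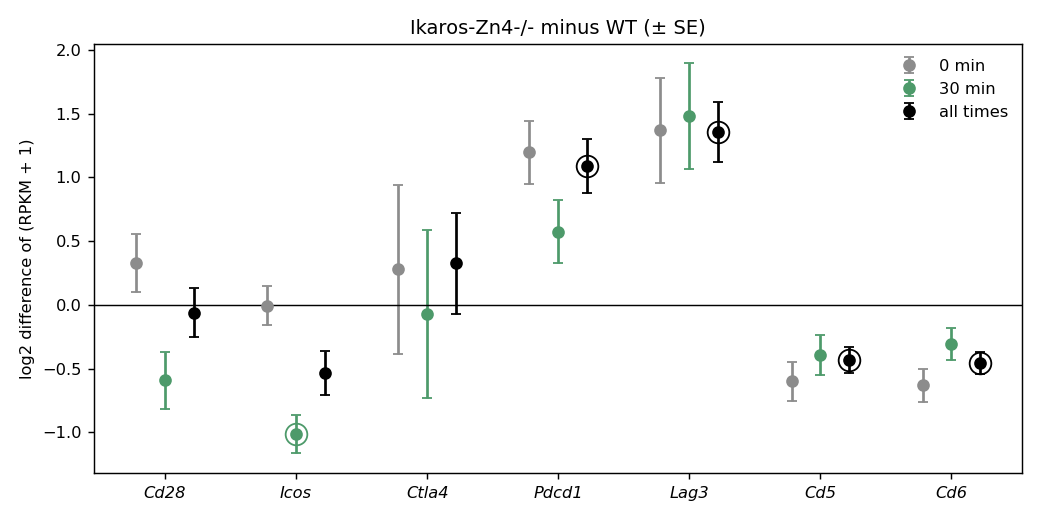
Log2 difference of RPKM + 1 between Ikaros-Zn4-/- and WT cells (vertical axis) with its SE, at 0 min, at 30 min and over all times. Rings mark an adjusted p under 0.05: Icos at 30 min, and Pdcd1, Lag3, Cd5 and Cd6 over all times.

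Markers of other cells and of antigen-experienced CD8+ T cells differed with genotype too, beside the receptor differences. Of 9 markers of antigen-experienced cells 8 were in the table, and their summed level was 181 to 206 RPKM in WT and 283 to 400 RPKM in mutant libraries. Over all times 5 of the 8 were higher in the mutant and 0 lower, where 6.19% of all tested genes were higher and 3.24% lower. Among the 5 were the chemokine receptor Cxcr3 at 3.27, Eomes at 1.64 and Tbx21, another T-box factor, at 1.47. Itgae, Gzmb and Cd44, on which the cells were sorted, did not pass (adjusted p = 0.196 for Cd44). Cd44 went the other way, at 0.893 to 1.75 RPKM in WT and 0.731 to 1.11 RPKM in mutant libraries. At 30 min so did Gzmb, with 1.34 and 1.33 RPKM in WT and 0.620 and 0.734 RPKM in mutant cells. The CD4+ and regulatory T cell markers summed to 5.08 to 17.9 RPKM in WT and 10.3 to 29.0 RPKM in mutant libraries, with Ikzf2 (1.19) and Ikzf4 (1.06) called higher. Of the B cell markers 3 were listed, and Ms4a1, Cd22, Ebf1 and Pax5 were not. Those 3 summed to 9.61 to 16.1 RPKM in WT and 29.8 to 49.4 RPKM in mutant libraries, with Cd74, an MHC class II chaperone, higher by 3.36 and Cd79b lower by a log2 difference of -0.83. Myeloid markers (4 of 8 listed) summed to 28.8 to 52.6 RPKM in WT and 31.6 to 94.5 RPKM in mutant libraries. Those of natural killer and gamma delta T cells (2 of 8) summed to 11.0 to 66.1 RPKM and 9.74 to 82.0 RPKM. The 8 markers of naive CD8+ T cells were all listed, at a sum of 1735 to 3098 RPKM in WT and 1533 to 3200 RPKM in mutant libraries. The part of any of these markers in the Pdcd1, Lag3, Cd5, Cd6 and Icos differences was not tested.

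Genes next to the receptors were read for moves that the receptors share. Of all tested genes 6.51% rose and 12.5% fell at 30 min, and 19.3% rose and 40.4% fell at 120 min. Right of Cd28, 3.31 kb away on the opposite strand, Gm11579 rose by 2.54 at 30 min (adjusted p = 0.000476) and by 2.15 at 120 min (adjusted p = 9.33e-05). It overlaps 2310016D23Rik, which runs on the plus strand towards Ctla4 and rose by 2.35 (adjusted p = 0.00148) and 2.09 (adjusted p = 0.000415). Without strand the reads of these overlapping noncoding genes cannot be told apart. Gm11579 was at 0.976 to 2.13 RPKM in resting libraries and at 8.12 to 15.7 RPKM in stimulated ones, so the groups did not overlap. On the far side of Icos, Ino80d lies 1958 kb away. It was not called at 30 min (adjusted p = 0.393) but rose by 0.63 at 120 min (adjusted p = 0.00964), a call lost in 1 of 19 other settings. Beside Cd5 and Cd6, A430093F15Rik lies between the pair and fell by 0.94 at 120 min (adjusted p = 0.00673; -0.64 and adjusted p = 0.115 without the WT library at 120 min, and -0.53 and adjusted p = 0.0552 after quantile normalization), and Tmem109, 40.6 kb beyond Cd6, fell by 0.91 (adjusted p = 0.00525). Vps37c, 2.49 kb from Cd5 on its other side, did not pass (adjusted p = 0.559). The neighbours of Pdcd1 lie farther off. D2hgdh, 186 kb away, fell by 1.56 at 120 min (adjusted p = 0.000289), and RP23-193H10.1, 416 kb away on the other side, fell by 0.77 (adjusted p = 0.0122), a call lost in 3 of 19 other settings, median-ratio scaling among them (-0.41, adjusted p = 0.0825). Next to Lag3, 1.98 kb away, Ptms, the gene of parathymosin, was at 3.62 to 4.47 RPKM in WT and 5.50 to 12.4 RPKM in mutant libraries, a log2 difference over all times of 0.96 (adjusted p = 0.00554). Cdca3, 70.7 kb from Lag3 on its other side, did not pass by genotype (adjusted p = 0.786). Gm11575, 194 kb left of Cd28, was at 0 to 2.28 RPKM and too low to be tested.

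**Figure D5:**
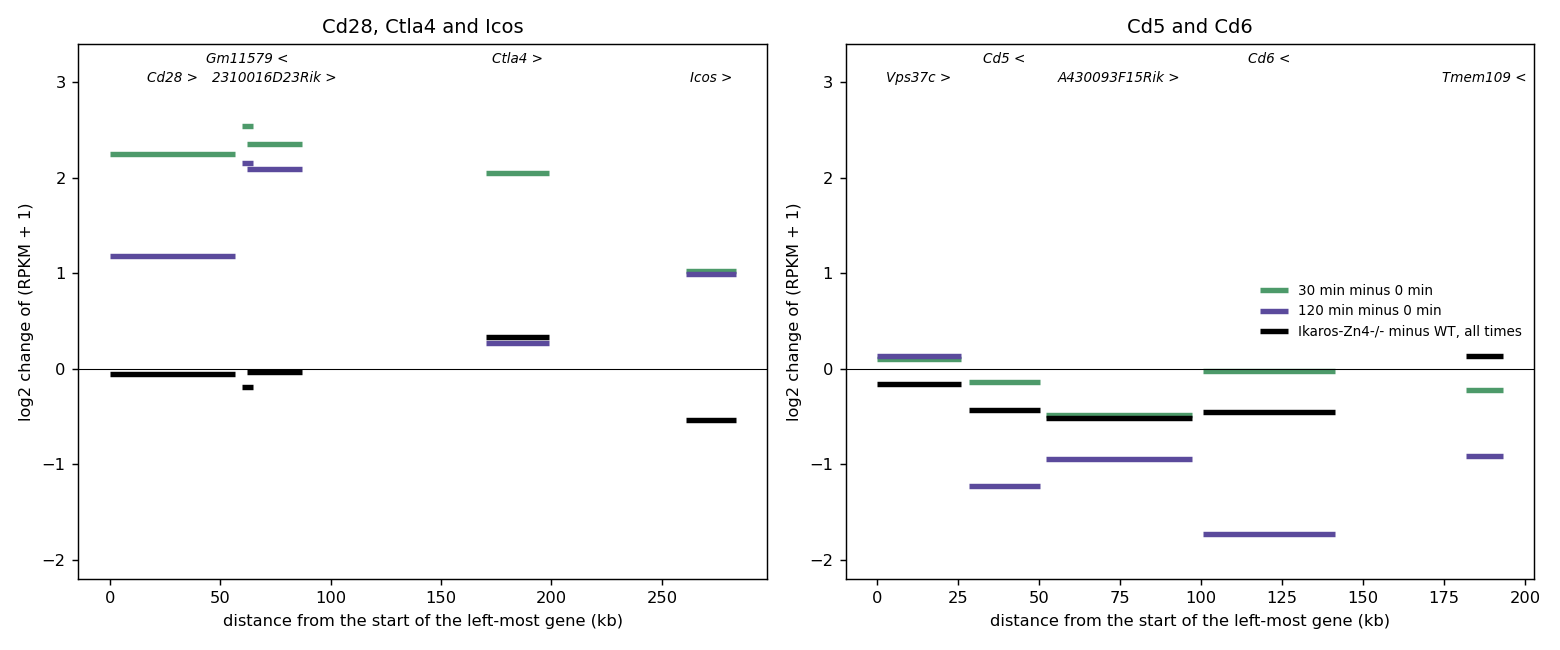
Log2 change of RPKM + 1 (vertical axis) of the listed genes around Cd28, Ctla4 and Icos and around Cd5 and Cd6, drawn as bars over each gene's span in kb from the left-most gene's start; arrowheads give the strand. Cd28, Gm11579, 2310016D23Rik and Ctla4 are all above 2 at 30 min, and Icos is at 1.02. Cd5, A430093F15Rik, Cd6 and Tmem109 are all below -0.9 at 120 min, and Vps37c is at 0.13. Of all tested genes 6.51% rose at 30 min and 40.4% fell at 120 min.

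The genes whose level followed each receptor most closely were named by Pearson's r of the log2 values over the 10 libraries, among the 6981 or 6982 genes that averaged 5 RPKM or more. These are descriptions over libraries that share their time and genotype groups. Closest to Cd28 were Ccr7, the lymph node homing receptor (r 0.979), and Cytip (0.976). Icos was followed by Got1 (0.949) and Rlim (0.933), and Ctla4 by Rgcc (0.961) and Irf1, an interferon regulatory factor (0.938). Pdcd1 was followed by Trim59 (0.937), Znfx1 and Gbp2 (both 0.910), and Lag3 by Sh3bp5 (0.956), Chst11 (0.953) and Socs3, a suppressor of cytokine signalling (0.942). Closest to Cd5 were Mppe1 (0.993) and the interferon regulatory factor Irf7 (0.989), and to Cd6 Hcst, which encodes the adaptor DAP10 (0.989), and Helz2 (0.985). The third gene of each set was RP23-16N14.5 for Cd28 (0.962), Kbtbd2 for Icos (0.933), Sgk1 for Ctla4 (0.924), Rin3 for Cd5 (0.986) and Arhgef18 for Cd6 (0.982).

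Most other receptors of the same kinds fell at 120 min, the direction of Cd5 and Cd6, and a few rose. Among 13 other costimulatory and adhesion receptors 2 rose and 5 fell at 30 min, where 6.51% of all tested genes rose and 12.5% fell. At 120 min 4 rose and 9 fell, where 19.3% and 40.4% of all genes did. Their median log2 change was -0.25 and -1.18, against -0.13 and -0.32 for all genes. Cd48, a CD2 ligand, fell by 0.76 at 30 min and had fallen by 2.35 from rest at 120 min, and Tnfrsf14 fell by 1.31 and 2.00. Slamf6 fell by 0.48 and 1.98, while the TNF receptor Tnfrsf1b rose by 2.00 at 120 min. The 30 min call was lost in 5 of 19 other settings for Cd48 and in 2 of 19 for Slamf6. By genotype over all times 1 of the 13 was higher and 0 lower, where 6.19% of all tested genes were higher and 3.24% lower. It was Tnfrsf9, which encodes 4-1BB (0.93, adjusted p = 0.00791). Among 11 other inhibitory receptors 1 rose and 2 fell at 30 min (6.51% and 12.5% of all genes), and 1 rose and 9 fell at 120 min (19.3% and 40.4%), with a median of -0.25 and -1.24. Tigit, an inhibitory receptor of the PVR family ligands, rose by 2.03 at 30 min and stood 1.74 above rest at 120 min (1.35 and adjusted p = 0.0609 without the WT library at 120 min). Cd72 fell by 2.34, Cd160 by 2.18 and Cd96 by 2.12 at 120 min. By genotype 3 of the 11 were higher over all times (6.19% of all genes) and 0 lower (3.24%). The 3 were Cd72 by 0.84, Lair1 by 0.75 and Cd200r1 by 0.71. The call was lost in 6 of 16 other settings for Lair1 and in 10 of 16 for Cd200r1. Scaling each library by its median ratio, like quantile normalization, left 7 of these 11 falling at 120 min and 0 at 30 min. Of all 12203 genes 3659 fell at 120 min and 836 at 30 min with median-ratio scaling, and 3504 and 1027 with quantile normalization.

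Ligands of these receptors were sparse, with 9 of 17 in the table and 7 tested. At 30 min 2 rose and 0 fell (6.51% and 12.5% of all genes), and at 120 min 2 rose and 1 fell (19.3% and 40.4%), with a median log2 change of 0.18 and 0.24. Scaled by the median ratio, 3 rose and 0 fell at 120 min, where 3635 and 3659 of all 12203 genes did. Tnfsf9, the ligand of 4-1BB, rose by 0.70 and 1.45, and Cd274, the gene of the PD-1 ligand PD-L1, rose by 0.49 and 0.70. The 30 min call of Cd274 was lost in 5 of 10 fits without 1 library, and its 120 min change was 0.31 (adjusted p = 0.179) without the mutant library at 120 min. Over all times Cd274 was also higher in mutant cells (0.64, adjusted p = 0.0175), as were Lgals3, a galectin that can bind LAG-3, at 2.17 and Pvr at 0.59, while Cd86, a ligand of CD28 and CTLA-4, was lower at -0.78 and fell by 0.61 at 120 min. That fall lost its call with median-ratio scaling (-0.37, adjusted p = 0.0633), with quantile normalization (-0.17, adjusted p = 0.383) and without the WT library at 120 min (-0.45, adjusted p = 0.131).

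Among 21 proteins that signal downstream of CD28 and ICOS, 3 rose and 1 fell at 30 min (6.51% and 12.5% of all genes), and 8 rose and 8 fell at 120 min (19.3% and 40.4%), with a median of -0.06 and -0.10. Scaled by the median ratio, 10 rose and 5 fell at 120 min, where 3635 and 3659 of all 12203 genes did. Rel, an NF-kB subunit, rose by 1.45 and 2.31, and Bcl10, an adaptor of the pathway to NF-kB, rose by 0.85 and 1.55. Pik3ca, a catalytic subunit of phosphoinositide 3-kinase, rose by 1.36 at 120 min and the kinase Akt1 fell by 1.33. By genotype 1 was higher over all times (6.19% of all genes) and 0 lower (3.24%). It was the kinase Lck (0.43, a call lost in 6 of 18 other settings). Malt1, the paracaspase partner of Bcl10, was lower at 30 min (-0.71, adjusted p = 0.0377), where 0.606% of all genes were lower. The Malt1 call was lost in each of the 8 fits without a library of 0 or 30 min (adjusted p up to 0.227) and with the spread of the compared groups alone (adjusted p = 0.163). Among 22 signalling proteins of the inhibitory receptors, Cd5 and Cd6, 0 rose and 2 fell at 30 min (6.51% and 12.5% of all genes), and 3 rose and 13 fell at 120 min (19.3% and 40.4%), with a median of -0.07 and -0.56. With libraries scaled by the median ratio, 6 rose and 8 fell at 120 min, where again 3635 and 3659 of all genes did. Sit1, a transmembrane adaptor, fell by 3.10, Dok2 by 2.29 and the phosphatase gene Ptpn6 (SHP-1) by 1.61, while Cblb, a ubiquitin ligase, rose by 1.77. By genotype 4 were higher over all times (6.19% of all genes) and 0 lower (3.24%). The 4 were Sit1 by 0.99, Lat by 0.59, Ptpn6 by 0.55 and Lcp2 by 0.43. The call was lost in 7 of 18 other settings for Ptpn6 and in 5 of 18 for Lcp2.

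Proteins that act on the receptors themselves were in 2 further lists. Of 10 trafficking and shedding proteins of Ctla4 and Lag3, 0 rose and 2 fell at 30 min (6.51% and 12.5% of all genes) and 1 rose and 3 fell at 120 min (19.3% and 40.4%), with a median change of -0.16 and -0.15. By genotype 0 differed over all times by limma, where 6.19% of all genes were higher and 3.24% lower. At 30 min Rab8a fell by 0.62 and Ap1m1 by 0.38, each a call lost in 6 of 19 other settings. For Ap1m1 median-ratio scaling was among them (-0.24, adjusted p = 0.0731). Trat1 fell by 2.53, Rab8a by 1.50 and Ap1m1 by 1.29 at 120 min, and Lrba, which protects CTLA-4 from degradation, rose by 0.36, a call lost in 5 of 10 fits without 1 library. Scaled by the median ratio, 3 rose and 3 fell at 120 min, where 3635 and 3659 of all 12203 genes did. Of 9 regulators of Icos and Ctla4 mRNA decay, 6 rose and 0 fell at 30 min (6.51% and 12.5% of all genes), and 5 rose and 1 fell at 120 min (19.3% and 40.4%), with a median change of 0.66 and 0.56. Zc3h12a, which encodes the ribonuclease regnase-1, rose by 2.39 and 2.35, and Rc3h1, which encodes roquin-1, a repressor of Icos mRNA, rose by 0.66 and 1.96. Zfp36l1 rose by 1.43 at 30 min and Cnot1, the scaffold of the deadenylase complex, by 1.36 at 120 min. Malt1 is in this list as well, at 0.31 at 30 min and -0.67 at 120 min. By genotype 1 of the 9 was higher over all times (6.19% of all genes) and 0 lower (3.24%). It was Zc3h12d (0.68, adjusted p = 0.00267).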

How the data were processed

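RNA from sorted naive CD8+ T cells was sequenced in 10 libraries of 6 groups, per the labels' protocols with the TruSeq RNA kit v2 as single-end reads. The authors deposited 1 table of RPKM values per gene and library. The submitters' processing notes name TopHat2 2.0.12, TopHat, HTSeq 0.6.1 and the builds mm10 and GRCm38. What each did, and which annotation and gene lengths were used, is not given in the sources used here. GENCODE M21 (GRCm38) held 12567 of the identifiers and lacked 70. With its exon lengths, 65.8% to 71.1% of values under 200 reads fell within 0.01 of a whole read (2% by chance), which gave depths of 4.50 to 13.3 M reads. The recovered reads sum to 94.0% to 101% of these depths, so depths or lengths are slightly off where the sum passes 100%. Intervals cover counting error only.

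Tests used limma 3.58.1 in R 4.3.3 on log2(RPKM + 1) of genes averaging 0.5 RPKM or more, with 1 mean per group over all 10 libraries (4 residual degrees of freedom) and an intensity trend. Each 120 min group holds 1 library, assumed to vary like the others. For genotype over all times the model had additive terms for genotype and time, leaving 6 residual degrees of freedom. It treats libraries of different times as independent, though they may share mice. Tests were two-sided, adjusted by Benjamini-Hochberg over all 12203 genes, with a threshold of 0.05. The fits were tested on simulated data. All receptors were named; from each other list the called genes with the largest changes at 30 or 120 min (up to 4) and those called by genotype were named, with the 3 genes most like each receptor and its nearest listed neighbours. Markers called by genotype and not named in the text are Ly6c2, Il2rb, Itgam and Gzma, all higher in the mutant. The receptors and lists were chosen with earlier results of these data known. Figures and tables were made with Python 3.11.15, pandas 2.3.3, scipy 1.17.1 and matplotlib 3.10.9.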

Additional observations from a re-analysis of the deposited data

How the results depend on the processing

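The 63 receptor results (7 genes in 9 comparisons) were recomputed under 9 other settings and 10 fits that each left out 1 library. Of the 20 that passed the test none changed sign. In the fits without 1 library 566 of 630 values kept direction and call, 34 lost the call, 6 gained it and 24 changed sign, and in the other settings 512 of 542 kept both, 6 lost the call, 14 gained it and 10 changed sign. Where a lone 120 min library was left out, the comparison rested on the other genotype. Over both genotypes Cd28 and Icos at 30 and 120 min and Cd5 and Cd6 at 120 min and from 30 to 120 min, and Pdcd1, Lag3 and Cd6 by genotype over all times kept their call in every setting in which they were tested. The 34 sign changes lie in 15 results that did not pass, and their cause was not tested. Scaling by the median ratio gave 0.010 for Cd5 and 0.12 for Cd6 at 30 min, 0.22 for Icos from 30 to 120 min, and 0.033 for Lag3 and 0.11 for Cd5 in mutant cells at 30 min. Quantile normalization gave 0.0074 for Icos and 0.0080 for Lag3 from 30 to 120 min and 0.044 for Lag3 in mutant cells, and limma-voom on recovered reads gave 0.041 for Lag3 in mutant cells and 0.0085 for Icos by genotype at 0 min. With 1 library left out, the 30 min change ranged over both genotypes from -0.35 to 0.13 for Lag3 and from -0.088 to 0.039 for Cd6, in WT cells from -0.20 to 0.029 for Pdcd1, and in mutant cells from -0.54 to 0.43 for Lag3 and from -0.17 to 0.10 for Cd5. That of Ctla4 at 120 min ranged from -0.22 to 0.75 and that of Icos from 30 to 120 min from -0.22 to 0.16. Genotype differences ranged from -0.20 to 0.19 for Icos and from -0.69 to 1.25 for Ctla4 at 0 min, from -0.19 to 0.046 for Ctla4 at 30 min, and from -0.16 to 0.13 for Cd28 over all times, and differences between the 30 min responses from -1.32 to 0.62 for Ctla4 and from -0.37 to 0.59 for Lag3. Of the 7 receptors, 1 was called in mutant cells at 30 min, against 0 with the spread of the compared groups and 2 by limma-voom. By genotype 0 were called at 0 min, against 1 each with median-ratio scaling, quantile normalization and the replicate block and 3 by limma-voom. By genotype 1 was called at 30 min, against 0 with the spread of the compared groups, and 4 over all times, against 2 when genes averaging under 2 RPKM were dropped, under which Pdcd1 and Lag3 were not tested. With 1 library left out 3 to 5 were called from 30 to 120 min, 0 to 2 in WT and 0 to 1 in mutant cells at 30 min, and 0 to 1 by genotype at 0 and at 30 min. The replicate block raised the count of all genes called at 30 min from 2317 to 3484; same-numbered libraries deviated together only weakly (r 0.04 to 0.23) and with 2 numbers the pairing is not established. The numbers come from the sample descriptions; the title of the mutant 120 min library carries the number 1 and its description 2, so its block is uncertain. Without 1 library the count of all genes was 779 to 2316 at 30 min, 13 to 744 in WT and 39 to 337 in mutant cells, and 105 to 300 and 86 to 315 by genotype at 0 and 30 min, where the full fits gave 736, 334, 302 and 319. The spread of the compared groups alone gave 233, 0, 96 and 80. Limma-voom called 1400 genes in the WT and 718 in the mutant comparison at 30 min. For the other named genes, 102 called results were recomputed 1889 times, of which 203 lost the call and 0 changed sign. Depth limits Pdcd1 and Lag3 in WT cells, where 1 library holds at most 13 reads.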
